A study of Mus musculus with 59 samples.

Results

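The core circadian clock genes were read in 3 regions of the mouse brain after an injection of IP118/PY115 or vehicle. The members are 10 genes chosen by symbol: the period genes Per1, Per2 and Per3, the cryptochromes Cry1 and Cry2, the activators Clock, Npas2 and Arntl, and the nuclear receptors Nr1d1 and Nr1d2. Each symbol matched 1 of the 21935 Ensembl IDs of the count table, and all 10 had enough reads to be tested in every comparison. The smallest count of a member in any library was 21.

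All animals were C57BL/6 mice that received an intraperitoneal injection of vehicle or of IP118/PY115, a peptide combination known here by its label, and were killed 4 h later. From frozen sections of 10 µm, laser capture took 4 mm² per animal from each of 3 places: 2 hypothalamic nuclei, the paraventricular (PVN) and the arcuate (ARC), and 1 in the brainstem, the solitary tract nucleus (NTS). PVN and NTS had 10 vehicle and 10 treated libraries each, and ARC had 9 vehicle and 10 treated libraries, which makes 59. Age, sex, diet and the hour of day at injection or death are not given in the sources used here.

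The mammalian clock is a transcriptional feedback loop that nearly every cell runs. CLOCK, or its paralogue NPAS2, pairs with BMAL1 (the product of Arntl) and drives genes through E-box sequences, among them the Per and Cry genes and Nr1d1 and Nr1d2. PER and CRY proteins return to the nucleus and block that pair, while NR1D1 and NR1D2, also called REV-ERB alpha and beta, repress Arntl and Npas2 through sequences called RRE. Per1 and Per2 are also induced within hours by signals from outside the loop, including glucocorticoids and cAMP, which is one way in which food, stress or light shifts a local clock.

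The matches to known clock elements near the members' start sites are shown first, since the members are known to act on each other through such elements; most members had none here. RefSeq start-site windows (GRCm38.p6, 250 bases before to 50 after the start) were found for 9 members, with 13 windows, and not for Per2. The E-box CACGTG was in a window of 2 of the 9 members, Per1 and Cry1, and in 7.15% of all 32817 windows. The D-box TTATGTAA, bound by DBP, TEF, HLF and NFIL3, was present in 1 of the 9, Per3, and in 0.94% of all windows. The RRE letters GTAGGTCA were present in 1 of the 9, Arntl, and in 0.62% of all windows. The cAMP element TGACGTCA, in 1.79% of all windows, and the glucocorticoid receptor element (GNACA, 3 unspecified bases, TGTNC), in 0.48%, had no match in any window of the 9 members. Both strands were searched. A member was counted if any of its windows matched, while the percentages count single windows, so the shares have different units. Each sequence is given 5′ to 3′ on the strand of the gene, with the element in capitals; a match describes letters and is not shown to be bound.
Per1 E-box, first base 166 before the start, chr11:69098771-69098800, plus strand: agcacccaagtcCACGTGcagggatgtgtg
Cry1 E-box, first base 60 before the start, chr10:85185097-85185126, minus strand: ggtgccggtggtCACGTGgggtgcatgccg
Per3 D-box, first base 205 before the start, chr4:151044852-151044881, minus strand: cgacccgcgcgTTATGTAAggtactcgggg
Per3 D-box, first base 158 before the start, chr4:151044805-151044834, minus strand: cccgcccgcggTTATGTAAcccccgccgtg
Arntl RRE, first base 29 after the start, chr7:113207529-113207558, plus strand: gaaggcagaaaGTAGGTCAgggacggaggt

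Library totals ran from 3964093 to 28510118 counts. Levels below are in CPM, counts scaled to library size with TMM factors over all 59 libraries. The dissections held their own marker genes: summed over Avp, Oxt, Crh, Sim1 and Trh, PVN vehicle libraries had 8646 to 21270 CPM, ARC libraries at most 473 CPM in vehicle and 283 CPM in treated animals, and NTS libraries at most 4.55 CPM in vehicle and 101 CPM in treated animals. The 5 ARC markers in the table summed to 2321 to 3718 CPM in ARC vehicle and 1613 to 3102 CPM in ARC treated libraries, and to at most 69.5 CPM elsewhere. The 5 NTS markers tested summed to 905 to 1359 CPM in NTS and to at most 152 CPM elsewhere. Vip, a defining peptide of the suprachiasmatic nucleus, where the master clock lies, reached at most 0.866 CPM in PVN vehicle, 0.315 CPM in PVN treated, 1.06 CPM in ARC and 7.12 CPM in NTS libraries. Summed over 8 markers of that nucleus, vehicle and treated libraries overlapped in every region: 22.4 to 38.8 and 21.5 to 38.6 CPM in PVN, 73.4 to 115 and 68.2 to 108 in ARC, and 38.1 to 64.4 and 44.8 to 60.9 in NTS. Not all of the 8 were as low as Vip. Six6 ran from 49.2 to 83 CPM in ARC vehicle libraries and Grp from 29.5 to 55.3 CPM in NTS vehicle libraries. Rgs16 ran from 9.44 to 22.8 CPM in PVN vehicle libraries. Whether such values came from cells of that nucleus was not tested. In a captured area, fewer cells of a type and less RNA per cell cannot be told apart.

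Libraries are called by their order of accession within a group. In each region, the library labelled vehicle 1 was the highest vehicle library for Fkbp5, a glucocorticoid-induced gene, and the library labelled treated 1 was the lowest treated library. For Per1 in NTS both had values like those of the opposite group: vehicle 1 had 82.5 CPM against 35.02 to 52.8 CPM in the other 9 vehicle libraries, and treated 1 had 31.5 CPM against 63.9 to 90.9 CPM in the other 9 treated libraries. Results are therefore given with all libraries and again without these 2 libraries of a region. Since they were picked from measured values of Fkbp5 and Per1, p-values without them are too small, and a separation of the remaining libraries describes that choice. Whether the labels of these libraries were exchanged was not tested; all values with all libraries take the labels as given and would change if they were. A separate set of title numbers, 5553 to 5557, holds 3 PVN and 2 ARC libraries, all vehicle, so that set and the treatment cannot be told apart where it is used.

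Within vehicle libraries, per kb of exon, the nuclear receptors were the most abundant members and the activators Arntl and Npas2 the least. Levels were divided by the summed length of a gene's annotated exons. Nr1d2 stood at 30.4 ± 5.13 CPM per kb (SD, n = 10) in PVN, 29.9 ± 3.11 (n = 9) in ARC and 25.2 ± 2.56 (n = 10) in NTS. Nr1d1 stood at 27.2 ± 4.22, 27.2 ± 4.38 and 31.7 ± 5.12 CPM per kb in the same order. These receptors overlapped each other in every region and lay above all vehicle libraries of the next gene, Cry2, at 16.5 ± 2.23, 12.3 ± 1.32 and 12.9 ± 1.43 CPM per kb. In CPM, not divided by exon length, the order differed. Clock then exceeded Nr1d1 in mean, at 118 against 83.7 in PVN, 115 against 83.6 in ARC and 108 against 97.4 in NTS. Whether reads spread evenly over the exons was not tested.

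Per kb of exon, the order below Cry2 ran through Per1, Clock, Cry1, Per3 and Per2 in PVN and ARC, with Cry1 ahead of Clock in NTS. Neighbours in that stretch overlapped in every region, except Per3 and Per2 in ARC. Arntl, which encodes the partner of both CLOCK and NPAS2, was at 2.55 ± 0.289 CPM per kb in PVN, 3.70 ± 0.488 in ARC and 3.20 ± 0.362 in NTS. Npas2 was last at 1.33 ± 0.247, 1.69 ± 0.330 and 1.99 ± 0.322 CPM per kb. Its paralogue Clock was at 8.63 ± 1.36, 8.40 ± 0.773 and 7.88 ± 0.674 CPM per kb, above every vehicle value of Npas2 in each region.

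**Figure D1:**
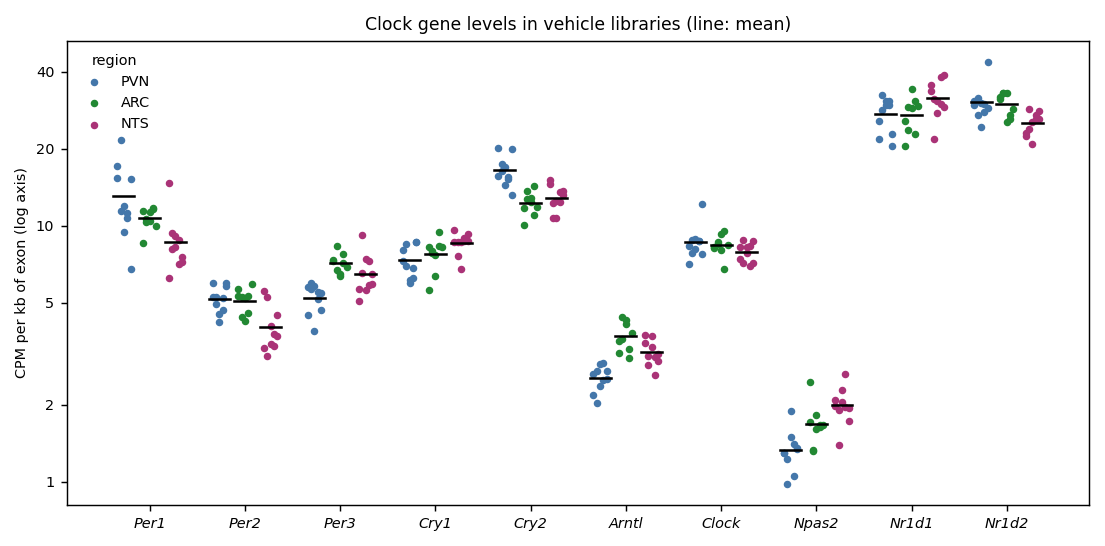
Level of each clock gene in the vehicle libraries of PVN (n = 10), ARC (n = 9) and NTS (n = 10), in CPM per kb of exon on a log axis; points are libraries and lines are means. Nr1d1 and Nr1d2 sit highest and Npas2 lowest in all 3 regions, and Arntl is lower in PVN than in ARC and NTS.

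The regions differed in Arntl, Npas2 and Per3, lowest in PVN, and in Cry2, highest in PVN. A joint fit with edgeR's quasi-likelihood test on all 59 libraries compared vehicle libraries between regions, with p-values adjusted over all genes (FDR, called under 0.05). Title numbers run in parallel in the 3 regions, but the labels do not say that they name animals. The fit therefore takes libraries from one animal as independent, and its p-values are inexact to the extent that such libraries vary together. Between PVN and ARC, 4 of the 10 were called: 1 was higher in PVN, against 24.8% of all 14379 genes tested, and 3 were lower, against 21.1%. Between PVN and NTS, 9 of the 10 were called, 4 higher in PVN (28.3% of all genes) and 5 lower (27.8%). Between ARC and NTS, 4 of the 10 were called, 3 higher in ARC (30.2% of all genes) and 1 lower (31.5%). These shares are high throughout, so the counts are near the background save for PVN and NTS.

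Of the activators, Arntl was lowest in PVN. Its vehicle libraries had 15.3 to 21.9 CPM there (median 19.4), 22.96 to 33.1 in ARC (median 27.02) and 19.6 to 28.01 in NTS (median 23.5). The PVN range thus lay below the whole ARC range and partly below that of NTS. On the log2 scale Arntl was lower in PVN than in ARC by -0.54 ± 0.09 (SE, edgeR FDR = 1.93e-06) and than in NTS by -0.33 ± 0.09 (edgeR FDR = 0.0014), and higher in ARC than in NTS by 0.20 ± 0.09 (edgeR FDR = 0.0472). Npas2 followed the same direction in PVN, with a log2 difference of -0.35 ± 0.13 from ARC (edgeR FDR = 0.0196) and -0.59 ± 0.12 from NTS (edgeR FDR = 3.74e-05). Clock differed little: its largest log2 difference was 0.13 ± 0.06 between PVN and NTS (edgeR FDR = 0.0757), so no pair of regions was called for it.

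Among the repressors, Cry2 was highest in PVN, with 83.1 to 127 CPM in vehicle libraries (median 101) against 63.3 to 90.6 in ARC (median 78.4) and 67.7 to 95.1 in NTS (median 81.0). The ranges overlapped, and the log2 differences were 0.42 ± 0.08 from ARC (edgeR FDR = 1.21e-05) and 0.36 ± 0.08 from NTS (edgeR FDR = 8.4e-05). Cry1 was called for 1 pair, lower in PVN than in NTS by -0.22 ± 0.08 (edgeR FDR = 0.0114).

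The 3 period genes did not share a regional order. Per3 was lowest in PVN, by -0.45 ± 0.09 against ARC (edgeR FDR = 2.22e-05) and -0.31 ± 0.09 against NTS (edgeR FDR = 0.0019). Per2 was lowest in NTS, where it was exceeded by PVN by 0.39 ± 0.10 (edgeR FDR = 0.000417) and by ARC by 0.35 ± 0.10 (edgeR FDR = 0.00148). Per1 was higher in PVN than in NTS by 0.62 ± 0.16 (edgeR FDR = 0.00101). Its difference between ARC and NTS, 0.32 ± 0.17, was not called with all libraries (edgeR FDR = 0.0941). Without the libraries numbered 1 it was 0.42 (edgeR FDR = 0.00279), an FDR too small because Per1 helped to pick those libraries.

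The 2 nuclear receptors ran opposite to each other. Nr1d2 was lower in NTS than in PVN and ARC, by log2 differences of 0.27 ± 0.07 (edgeR FDR = 0.00144) and 0.25 ± 0.08 (edgeR FDR = 0.00357). Nr1d1 was higher in NTS, with PVN at -0.23 ± 0.09 (edgeR FDR = 0.0341) and ARC at -0.22 ± 0.10 (edgeR FDR = 0.0389) relative to it. Neither Nr1d1 difference was called without the libraries numbered 1 (edgeR FDR = 0.112 and 0.0817). Cell markers differed between regions as well: summed over 5 genes, astrocyte markers ran from 1040 to 1853 CPM in PVN, 619 to 808 in ARC and 1748 to 2561 in NTS vehicle libraries, and 6 oligodendrocyte markers from 865 to 1248, 468 to 1238 and 2109 to 6397 CPM. Their part in the differences between regions was not tested.

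The treatment comparison asks what IP118/PY115 did to these genes at 4 h. Per1 and Per2 had higher means and Nr1d1 a lower mean after IP118/PY115 in all 3 regions; with all libraries no member was called by edgeR, and Nr1d1 in PVN was called by DESeq2 and limma-voom. With all libraries, edgeR's quasi-likelihood test fitted within each region called 0 of the 10 in PVN, against 0.656% of all 13409 genes, 0 of 10 in ARC, against 0.0% of 13484, and 0 of 10 in NTS, against 0.0% of 13696. At an unadjusted p under 0.05 edgeR counted 3 members in PVN (Per1, Per2 and Nr1d1), 2 in ARC (Per1 and Nr1d1) and 2 in NTS (Per1 and Per2), where 9.34%, 7.2% and 5.8% of all genes passed. DESeq2 and limma-voom with quality weights each called 1 member in PVN (Nr1d1) and 0 in ARC and NTS. Of all genes, the share called by DESeq2 was 1.36% (PVN), 0.418% (ARC) and 0.486% (NTS), and that by limma-voom 3.79%, 0.0371% and 0.139%. The median log2 fold change over the 10 was -0.065 in PVN, 0.015 in ARC and 0.031 in NTS, beside -0.019, 0.0 and 0.001 over all genes.

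Per1 (ENSMUSG00000020893, chr11:69095217-69109960, plus strand, GRCm38) showed the largest fold change of the members in each region. In NTS its CPM ran from 35.02 to 82.5 in vehicle libraries (median 45.9) and from 31.5 to 90.9 in treated libraries (median 79.4). The highest vehicle value and the lowest treated value were those of the libraries numbered 1, so the groups overlapped with all libraries; the ranges of the other 9 and 9 are given above. The log2 fold change was 0.61 ± 0.16 with all libraries (edgeR FDR = 0.203) and 0.81 ± 0.08 without the libraries numbered 1 (edgeR FDR = 5.19e-07, where 1.18% of 13744 genes were called). Leaving out vehicle 1 alone gave an edgeR FDR of 0.00996, and leaving out treated 1 alone gave 0.00425. Per1 itself helped to pick these libraries, so the values without them describe that choice and are no test of Per1.

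In PVN, Per1 ran from 37.97 to 122 CPM in vehicle libraries (median 65.9) and from 42.9 to 129 in treated libraries (median 107). Treated 1 was the lowest treated library, and the other 9 treated libraries, at 95.0 CPM or more, all exceeded the vehicle median. Vehicle libraries 6 and 7, at 96.7 and 122 CPM, overlapped them, so the groups did not separate even without the libraries numbered 1. The log2 fold change was 0.48 ± 0.19 (edgeR FDR = 0.355), and 0.60 ± 0.16 without those libraries (edgeR FDR = 0.0436, where 3.22% of 13342 genes were called). Without the 3 vehicle libraries titled 5553 to 5557 it was 0.33 ± 0.20 (edgeR FDR = 0.648). The FDR of 0.0436 is too small, because the libraries numbered 1 were picked from values of Fkbp5 and Per1.

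In ARC the vehicle libraries were tightly grouped, from 48.2 to 66.3 CPM (median 59.7), and treated libraries ran from 46.5 to 89.3 CPM (median 72.1). Treated 1 lay below every vehicle library and 7 of the 10 treated libraries lay above every vehicle library. The log2 fold change of 0.26 ± 0.10 was not called with all libraries (edgeR FDR = 0.5). It was 0.33 ± 0.08 without the libraries numbered 1 (edgeR FDR = 0.0342, where 1.14% of 13464 genes were called). Since those libraries were picked from values of Fkbp5 and Per1, the second FDR is too small. Treated 2 in ARC stood apart in its cell markers, with 5539 CPM over the oligodendrocyte markers against 479 to 1965 CPM in the other treated and 468 to 1238 CPM in the vehicle libraries, and with 1471 CPM of the neuronal gene Snap25 against at most 786 CPM in the others. Without it the ARC fold changes were 0.28 ± 0.10 for Per1 (edgeR FDR = 0.384) and -0.24 ± 0.07 for Nr1d1 (edgeR FDR = 0.285).

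Per2 (ENSMUSG00000055866, chr1:91415982-91459324, minus strand) encodes a partner of PER1 in the repressor complex and had smaller fold changes. In NTS it ran from 18.1 to 32.4 CPM in vehicle libraries (median 21.9) and from 18.4 to 36.7 in treated libraries (median 30.5). Treated 1 was the lowest treated and vehicle 1 the highest vehicle library; of the others, vehicle 7 at 30.9 CPM was the 1 vehicle library that reached the treated range. The log2 fold change was 0.36 ± 0.11 (edgeR FDR = 0.307), 0.42 ± 0.10 without treated 1 (edgeR FDR = 0.0363) and 0.48 ± 0.09 without both libraries numbered 1 (edgeR FDR = 0.00278). Since those libraries were picked from values of Fkbp5 and Per1, both FDRs obtained without them are too small. Among all genes, edgeR called 0.656% of 13729 without treated 1 and 1.18% of 13744 without both.

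Per2 in PVN ran from 24.5 to 34.99 CPM in vehicle libraries (median 30.7) and from 27.5 to 40.8 in treated libraries (median 36.1), and 7 of the 10 treated libraries lay above all vehicle libraries. Its log2 fold change was 0.21 ± 0.08 (edgeR FDR = 0.305) and 0.25 ± 0.08 without the libraries numbered 1 (edgeR FDR = 0.0824). ARC showed the smallest difference, 0.11 ± 0.09 (edgeR FDR = 0.836), with 5 of 10 treated libraries above the vehicle median.

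Per3 (ENSMUSG00000028957, chr4:151003652-151044665, minus strand), which is dispensable for rhythm in mice, was not called in any region. Its fold change was positive in ARC, as for Per1 and Per2, and negative in PVN and NTS. Its log2 fold changes were -0.15 ± 0.08 in PVN (edgeR FDR = 0.603), 0.10 ± 0.07 in ARC (edgeR FDR = 0.799) and -0.05 ± 0.10 in NTS (edgeR FDR = 0.999). In PVN 8 of the 10 treated libraries were below the vehicle median, and in ARC 7 of 10 were above it. Per3 lies inside the longer gene Camta1 on the same strand, so reads in shared exons could be assigned to either; Camta1 itself had log2 fold changes of -0.04, 0.06 and 0.04.

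**Figure D2:**
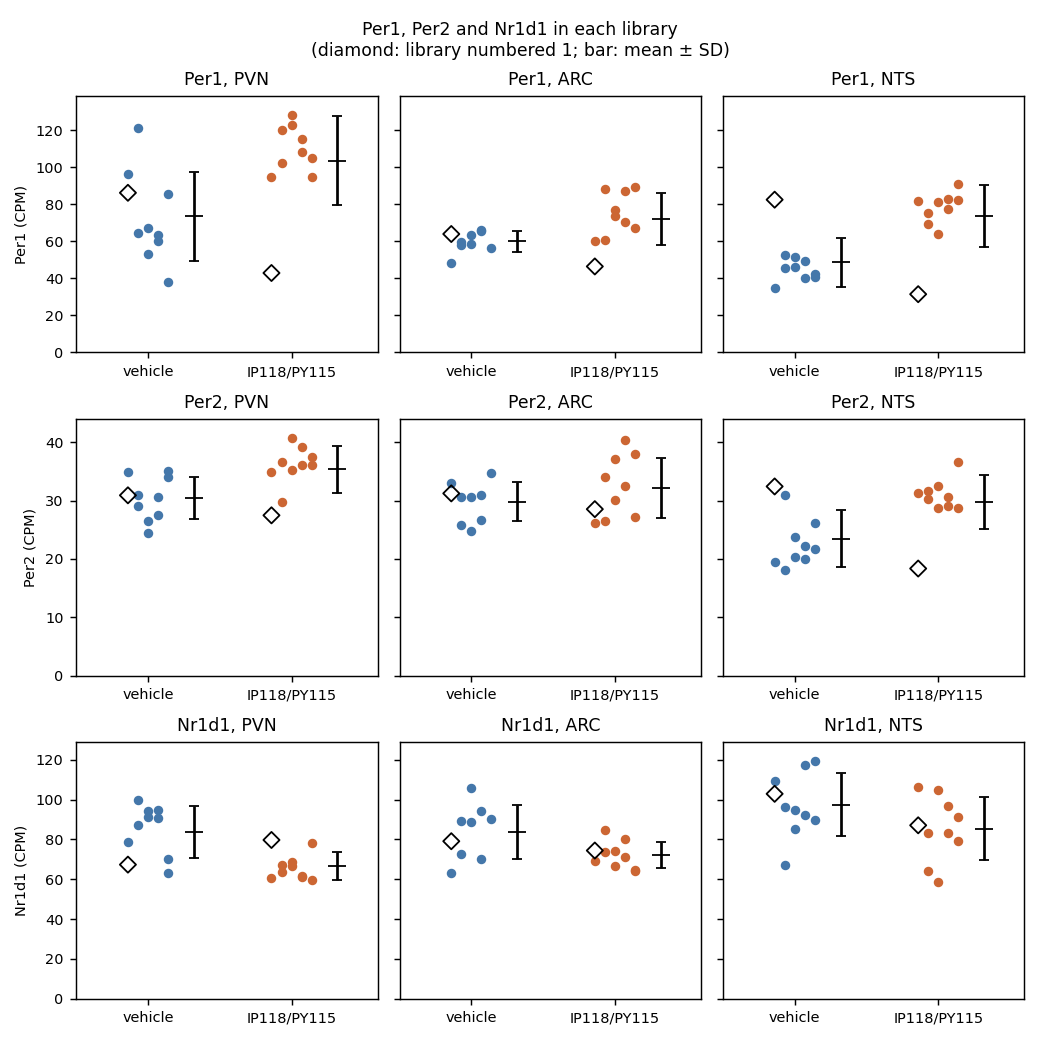
CPM of Per1, Per2 and Nr1d1 in each library of PVN, ARC and NTS, by treatment; open diamonds mark the libraries numbered 1 and bars give the mean ± SD. For Per1 in NTS the 2 diamonds lie on the side of the other group, at 82.5 and 31.5 CPM.

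Nr1d1 (ENSMUSG00000020889, chr11:98767932-98775333, minus strand), the heme-binding repressor of Arntl, ran the other way. In PVN it ran from 62.9 to 99.7 CPM in vehicle libraries (median 89.1) and from 59.8 to 79.7 in treated libraries (median 65.2). All 10 treated libraries were below the vehicle median and 4 of them below every vehicle library, although the groups overlapped. The log2 fold change was -0.32 ± 0.08 (edgeR FDR = 0.0648). It was called by DESeq2 (adjusted p = 0.0218) and by limma-voom (adjusted p = 0.0146), and by edgeR without the libraries numbered 1 (-0.38 ± 0.08, FDR = 0.00405). Leaving out 1 library at a time in edgeR, it was called without vehicle 1 (FDR = 0.0144), treated 1 (0.0176), vehicle 5 (0.0296) or vehicle 10 (0.0349), and with the log10 library total as a covariate it was -0.27 ± 0.09 (edgeR FDR = 0.329). The FDRs without vehicle 1, treated 1 or both are too small, because these libraries were picked from values of Fkbp5 and Per1. Among all genes, edgeR called 3.22% without both, 2.06% without vehicle 1, 1.96% without treated 1, 0.586% without vehicle 5 and 0.72% without vehicle 10.

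ARC gave the same direction for Nr1d1: 62.9 to 106 CPM in vehicle libraries (median 88.6) and 64.3 to 84.6 in treated libraries (median 72.3), with all 10 treated libraries below the vehicle median. Its log2 fold change in ARC was -0.21 ± 0.08 (edgeR FDR = 0.479). NTS was more mixed, at 67.0 to 119 CPM (median 95.6) in vehicle and 58.5 to 106 CPM (median 85.3) in treated libraries, with 7 of 10 treated libraries below the vehicle median and a log2 fold change of -0.19 ± 0.11 (edgeR FDR = 0.971). Without the libraries numbered 1 the ARC and NTS values were -0.22 and -0.19 (edgeR FDR = 0.351 and 0.866). Nr1d1 shares 1075 bases with Thra, the thyroid hormone receptor gene on the opposite strand; Thra had log2 fold changes of 0.03, -0.04 and -0.03 in PVN, ARC and NTS, and the strand setting of the counting is not given in the sources used here.

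Nr1d2 (ENSMUSG00000021775, chr14:18204054-18239127, minus strand), the paralogue that shares most targets of Nr1d1, did not move with it. Its log2 fold changes were -0.06 ± 0.08 in PVN (edgeR FDR = 0.882), 0.05 ± 0.06 in ARC (edgeR FDR = 0.883) and 0.003 ± 0.075 in NTS (edgeR FDR = 0.999), with 5 of 10 treated libraries above the vehicle median in each region.

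The cryptochromes, which bind the activator pair and silence it, were not called in any region. Cry1 (ENSMUSG00000020038, chr10:85131700-85185064, minus strand) had log2 fold changes of -0.075 ± 0.079 in PVN, -0.13 ± 0.09 in ARC and 0.07 ± 0.07 in NTS (edgeR FDR = 0.852, 0.784 and 0.999). In ARC all 10 treated libraries, at 21.3 to 26.6 CPM, lay below the vehicle median of 26.6 CPM, within the vehicle range of 18.7 to 31.5 CPM. Cry2 (ENSMUSG00000068742, chr2:92403646-92434043, minus strand) had log2 fold changes of 0.11 ± 0.08, -0.10 ± 0.06 and 0.06 ± 0.07 (edgeR FDR = 0.792, 0.768 and 0.999). The windows of Per1 and Cry1 both hold the E-box shown above, and its part in their values was not tested.

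The activators were not called in any region. Arntl (ENSMUSG00000055116, chr7:113207465-113314126, plus strand) had log2 fold changes of 0.005 ± 0.103 in PVN, -0.02 ± 0.09 in ARC and -0.13 ± 0.08 in NTS (edgeR FDR = 0.997, 0.981 and 0.999). Its level in PVN, where Nr1d1 was lowest after treatment, was 19.1 ± 2.17 CPM (SD, n = 10) in vehicle and 19.2 ± 3.85 CPM (n = 10) in treated libraries. In NTS 9 of the 10 treated libraries were below the vehicle median, and the exception was treated 1 at 28.5 CPM.

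Clock (ENSMUSG00000029238, chr5:76209868-76304792, minus strand), a histone acetyltransferase as well as a transcription factor, had log2 fold changes of -0.07 ± 0.07, 0.05 ± 0.06 and -0.002 ± 0.057 (edgeR FDR = 0.851, 0.899 and 0.999). Npas2 (ENSMUSG00000026077, chr1:39193731-39363236, plus strand), at 3.80 to 12.6 CPM over the libraries of all groups, had -0.07 ± 0.14, -0.09 ± 0.14 and 0.13 ± 0.11 (edgeR FDR = 0.93, 0.92 and 0.999). Arntl and Npas2, both known targets of NR1D1 repression, were not called in PVN, where the fold change of Nr1d1 was largest. With all libraries edgeR did not call Nr1d1 there either, and a link between these genes was not tested.

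**Figure D3:**
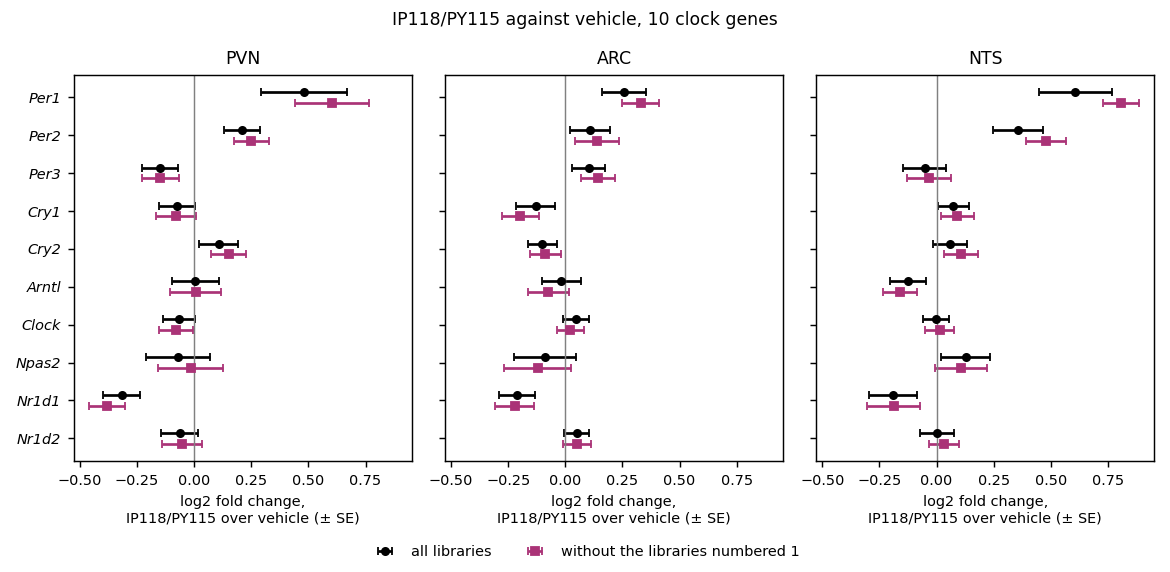
Log2 fold change (IP118/PY115 over vehicle, ± SE) of the 10 clock genes in PVN, ARC and NTS from edgeR, with all libraries (circles) and without the libraries numbered 1 (squares). Per1 and Per2 lie right of 0 and Nr1d1 left of 0 in every region under both settings; the NTS value of Per1 moves from 0.61 to 0.81.

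Whether the effect differed between regions was tested as an interaction in the joint fit, and 0 of the 10 members were called for PVN against ARC (0.0487% of all genes called), PVN against NTS (0.0904%) or ARC against NTS (0.0% called). At an unadjusted p under 0.05 edgeR counted 1 member, Per3, for PVN against ARC (6.21% of all genes) and 0 for PVN against NTS (4.28%) and ARC against NTS (3.76%), and DESeq2 called 0 in all 3 pairs. The Per1 effect was 0.35 ± 0.23 smaller in ARC than in NTS on the log2 scale (edgeR FDR = 1), and 0.48 ± 0.17 smaller without the libraries numbered 1 (edgeR FDR = 0.478). The Per1 effect was therefore not shown to differ between ARC and NTS.

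Genes that respond to the same outside signals as Per1 and Per2 are given beside them. Of 6 genes induced by glucocorticoids, edgeR called 2 in PVN, both higher (Fkbp5 and Zbtb16), and 0 in ARC and NTS with all libraries. Of all genes, it called 0.656% in PVN and 0.0% in ARC and NTS. Fkbp5, which encodes a chaperone that restrains the glucocorticoid receptor, had 0.65 ± 0.15 in PVN (edgeR FDR = 0.045), 0.72 ± 0.22 in ARC (edgeR FDR = 0.329) and 0.58 ± 0.15 in NTS (edgeR FDR = 0.203). Zbtb16 had 1.13 ± 0.19, 1.17 ± 0.28 and 0.90 ± 0.24 (edgeR FDR = 0.0149, 0.168 and 0.212). Cdkn1a, a cell cycle inhibitor, had 1.397 ± 0.386, 1.194 ± 0.284 and 1.503 ± 0.358 (edgeR FDR = 0.125, 0.159 and 0.165), and the kinase gene Sgk1 had 0.37 ± 0.17, 0.83 ± 0.30 and 0.99 ± 0.31 (edgeR FDR = 0.476, 0.484 and 0.38). Tsc22d3 had 0.42 ± 0.12, 0.45 ± 0.12 and 0.62 ± 0.16 (edgeR FDR = 0.14, 0.202 and 0.175), and Klf9 had 0.25 ± 0.09, 0.42 ± 0.10 and 0.33 ± 0.11 (edgeR FDR = 0.321, 0.134 and 0.368). These values were positive in each region, as were 42.4% of all genes in PVN, 50.1% in ARC and 50.2% in NTS. Since Fkbp5 set the libraries numbered 1 apart, values without those libraries are not given for this list.

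Of 4 genes induced by neuronal activity, edgeR called 0 in each region with all libraries. Fos had log2 fold changes of -0.10 ± 0.25 in PVN, 0.27 ± 0.33 in ARC and 1.52 ± 0.42 in NTS (edgeR FDR = 0.944, 0.894 and 0.245). Junb had -0.19 ± 0.21, 0.21 ± 0.22 and 1.33 ± 0.30 (edgeR FDR = 0.856, 0.875 and 0.142). Nr4a1, an orphan nuclear receptor gene, had 0.34 ± 0.40, 0.30 ± 0.28 and 1.39 ± 0.29 (edgeR FDR = 0.871, 0.861 and 0.101), and Sik1, a kinase gene induced by cAMP, had 0.01 ± 0.25, 0.03 ± 0.18 and 0.57 ± 0.17 (edgeR FDR = 0.996, 0.985 and 0.3). The effects were not shown to differ between regions with all libraries: the edgeR FDR for PVN against NTS was 0.378 for Fos, 0.0634 for Junb and 1 for Nr4a1 and Sik1, and for ARC against NTS it was 0.852 for Junb and 1 for the other 3.

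The libraries numbered 1 changed these calls. In NTS, Fos ran from 6.97 to 75.3 CPM in vehicle (median 16.3) and from 8.66 to 88.8 CPM in treated libraries (median 67.2), and without those libraries from 6.97 to 27.1 CPM (median 15.8) and from 39.6 to 88.8 CPM (median 70.4). Without them edgeR called all 4 in NTS, Fos at 2.11 ± 0.23 (FDR = 2.55e-05), Junb at 1.76 ± 0.13 (FDR = 6.91e-08), Nr4a1 at 1.74 ± 0.15 (FDR = 2.05e-07) and Sik1 at 0.74 ± 0.11 (FDR = 0.000173), and 0 of 4 in PVN and ARC. Of all genes, edgeR then called 1.18% in NTS, 3.22% in PVN and 1.14% in ARC. In that setting the interaction was called for Fos in PVN against NTS (edgeR FDR = 0.00374). It was called for Junb in PVN against NTS (edgeR FDR = 2.95e-05) and ARC against NTS (edgeR FDR = 0.00823). Of all genes, 0.432% and 0.244% were called for these 2 pairs of regions. All p-values of this setting are too small for the reason given above. The part of either signal in the Per1 and Per2 values was not tested.

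The wider clock pathway was read from 22 further genes. With all libraries edgeR called 0 of the 22 in each region, while 6, 6 and 4 had an unadjusted p under 0.05 in PVN, ARC and NTS, where 9.34%, 7.2% and 5.8% of all genes did. DESeq2 called 3 in PVN (Bhlhe40, Dbp and Hlf, all lower), 1 in ARC (Noct, higher) and 1 in NTS (Usp2, higher), and limma-voom called 5, 0 and 0. Among all genes DESeq2 called 1.36%, 0.418% and 0.486%, and limma-voom 3.79%, 0.0371% and 0.139%. The median log2 fold change over the 22 was -0.023, -0.022 and 0.004.

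In PVN the smallest p belonged to Hlf (-0.30 ± 0.08, edgeR FDR = 0.061), Dbp (-0.35 ± 0.10, edgeR FDR = 0.0942) and Bhlhe40 (-0.39 ± 0.11, edgeR FDR = 0.0988). Dbp and Hlf are output genes of the loop that bind D-boxes, the element at 2 places in the Per3 window, and Bhlhe40 is an E-box repressor. Dbp ran from 69.5 to 122 CPM in PVN vehicle libraries (median 103) and from 60.8 to 108 in treated libraries (median 75.2), with 9 of 10 treated libraries below the vehicle median. It was also lower in ARC, at -0.30 ± 0.08 (edgeR FDR = 0.202), and in NTS, at -0.18 ± 0.07 (edgeR FDR = 0.711), where all 10 treated libraries were below the vehicle median.

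In ARC, Noct, a phosphatase gene with rhythmic transcripts, had the smallest p (0.42 ± 0.08, edgeR FDR = 0.0656), followed by Dbp and Bhlhe40 (-0.42 ± 0.14, edgeR FDR = 0.437). Noct averaged 54.3 ± 9.80 CPM (SD, n = 9) in vehicle and 72.6 ± 8.07 CPM (n = 10) in treated libraries. In NTS the smallest p belonged to Usp2, a deubiquitinase that acts on PER1 and CRY proteins (0.51 ± 0.13, edgeR FDR = 0.169), Nfil3 (0.36 ± 0.12, edgeR FDR = 0.448) and Dbp.

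Without the libraries numbered 1 edgeR called 5 of the 22 in PVN: Usp2 was higher (0.56 ± 0.11) and Bhlhe40 (-0.53 ± 0.08), Dbp (-0.41 ± 0.10), Hlf (-0.31 ± 0.08) and Tef (-0.18 ± 0.05) were lower. In ARC it called Noct higher (0.54 ± 0.06) and Bhlhe40 (-0.56 ± 0.11) and Dbp (-0.32 ± 0.08) lower. In NTS it called Usp2 higher (0.65 ± 0.08). These treatment calls stand beside 3.22% (PVN), 1.14% (ARC) and 1.18% (NTS) of all genes. In that setting the interaction for Bhlhe40 was called for PVN minus NTS (-0.63 ± 0.16, edgeR FDR = 0.0477) and ARC minus NTS (-0.66 ± 0.16, edgeR FDR = 0.0456). Bhlhe40 had a log2 fold change of 0.10 ± 0.13 in NTS. The interaction for Noct was called for PVN minus ARC (-0.38 ± 0.09, edgeR FDR = 0.0305) and ARC minus NTS (0.42 ± 0.09, edgeR FDR = 0.0118). None of these interactions was called with all libraries, so differences between regions were not shown for these genes. The p-values without the libraries numbered 1 are too small for the reason given above. The interaction was called in that setting for 0.362% of all genes (PVN against ARC), 0.432% (PVN against NTS) and 0.244% (ARC against NTS).

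**Figure D4:**
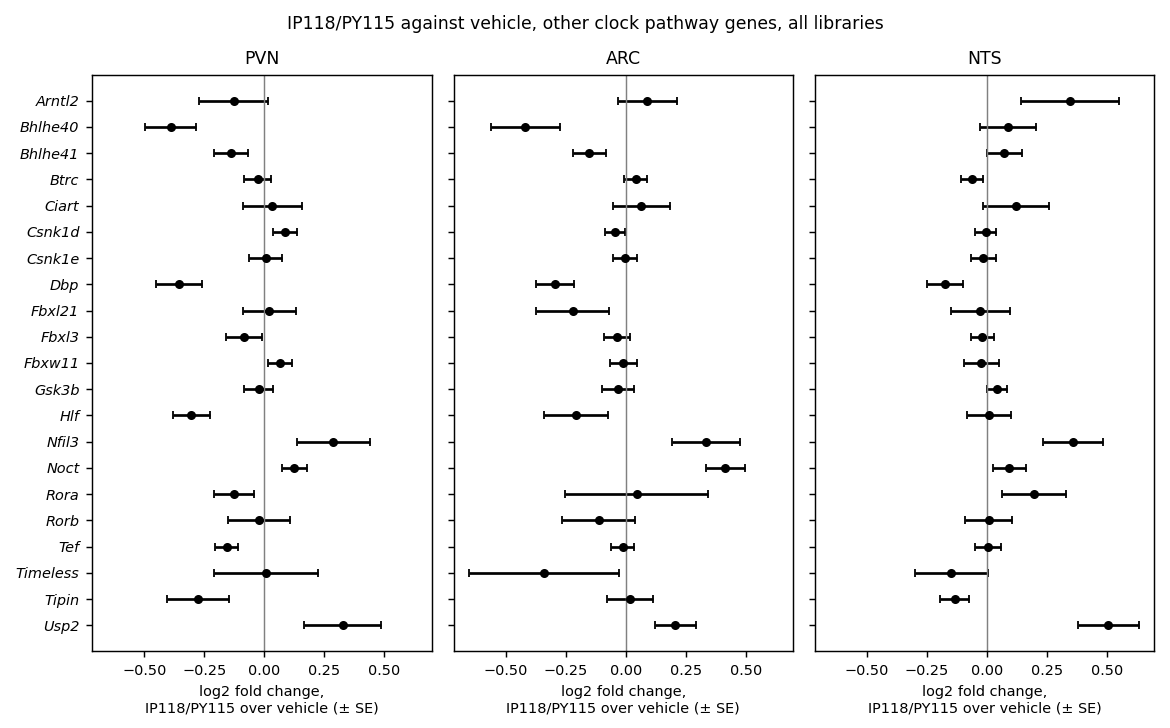
Log2 fold change (IP118/PY115 over vehicle, ± SE, edgeR, all libraries) of the other clock pathway genes in PVN, ARC and NTS, without 1 of the 22 that is not reported here. Dbp lies left of 0 in each region, Usp2 and Nfil3 right of 0 in each region, and Bhlhe40 left of 0 in PVN and ARC and slightly right of it in NTS.

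Between regions in vehicle libraries, edgeR called 13 of the 22 for PVN against ARC, 5 higher in PVN and 8 lower, where 24.8% and 21.1% of all genes were called. It called 10 for PVN against NTS, 3 higher and 7 lower (28.3% and 27.8% of all genes), and 12 for ARC against NTS, 5 higher and 7 lower (30.2% and 31.5%). Of these, Rorb and Arntl2 are named after their values were seen. Rorb, which encodes a nuclear receptor that activates through RRE sites, was higher in PVN than in NTS by 0.94 ± 0.13 (edgeR FDR = 1.34e-08). Arntl2, the paralogue of Arntl, was higher in ARC than in NTS by 1.93 ± 0.17 (edgeR FDR = 3.67e-16) and lower in PVN than in ARC by -0.86 ± 0.16 (edgeR FDR = 6.29e-06), as Arntl was. It was higher in PVN than in NTS by 1.07 ± 0.17 (edgeR FDR = 1.34e-07), where Arntl was lower.

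The spread within groups was read next, as the covariation of members between libraries. After subtracting group means from log2 CPM, the 45 pairs of members were correlated in each region, with p-values from 100000 permutations within groups adjusted over the 135 pairs of the 3 regions. In PVN 2 pairs passed: Per1 with Cry2 (Pearson's r = 0.786, Spearman's rho = 0.68, permutation adjusted p = 0.0226 and 0.0792) and Cry2 with Clock (r = -0.643, rho = -0.615, permutation adjusted p = 0.0353 and 0.125). Without the 2 libraries farthest from the median the Per1 and Cry2 correlation was 0.483, and without the libraries numbered 1 it was 0.668 and no longer passed (permutation adjusted p = 0.183). The Cry2 and Clock correlation was -0.621 without the 2 farthest libraries.

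In ARC 0 of 45 pairs passed and 5 had an unadjusted permutation p under 0.05. In NTS 4 pairs passed by Pearson's r, of which 3 involved Nr1d1. Clock with Nr1d1 gave r = -0.727 and rho = -0.776 (permutation adjusted p = 0.0226 and 0.0162) and r = -0.633 without the 2 farthest libraries, and it was the 1 pair of the 135 that passed by rank as well. Cry2 with Nr1d1 gave r = 0.746 and rho = 0.695 (permutation adjusted p = 0.0226 and 0.0792), and Per3 with Nr1d1 gave r = -0.715 and rho = -0.555 (permutation adjusted p = 0.0226 and 0.2). Without the 2 farthest libraries these were 0.631 and -0.691.

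Arntl with Nr1d2, a target with its repressor, gave r = -0.706 and rho = -0.611 in NTS (permutation adjusted p = 0.0353 and 0.125), r = -0.553 without the 2 farthest libraries, and did not pass without the libraries numbered 1 (r = -0.502, permutation adjusted p = 0.305). The same pair gave -0.063 in PVN and 0.254 in ARC. Arntl with Nr1d1 gave -0.001, 0.331 and -0.032 in PVN, ARC and NTS, and the paralogues Nr1d1 and Nr1d2 gave -0.325, -0.202 and 0.012; none of these passed. Per1 with Per2 gave r = 0.463, 0.507 and 0.749 (permutation adjusted p = 0.275, 0.275 and 0.0633), and in NTS this was 0.206 without the libraries numbered 1. Over 30 relations no member's level passed against the log10 library total, the smallest permutation adjusted p being 0.766 for Cry2 in NTS (r = 0.509, rho = 0.505).

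**Figure D5:**
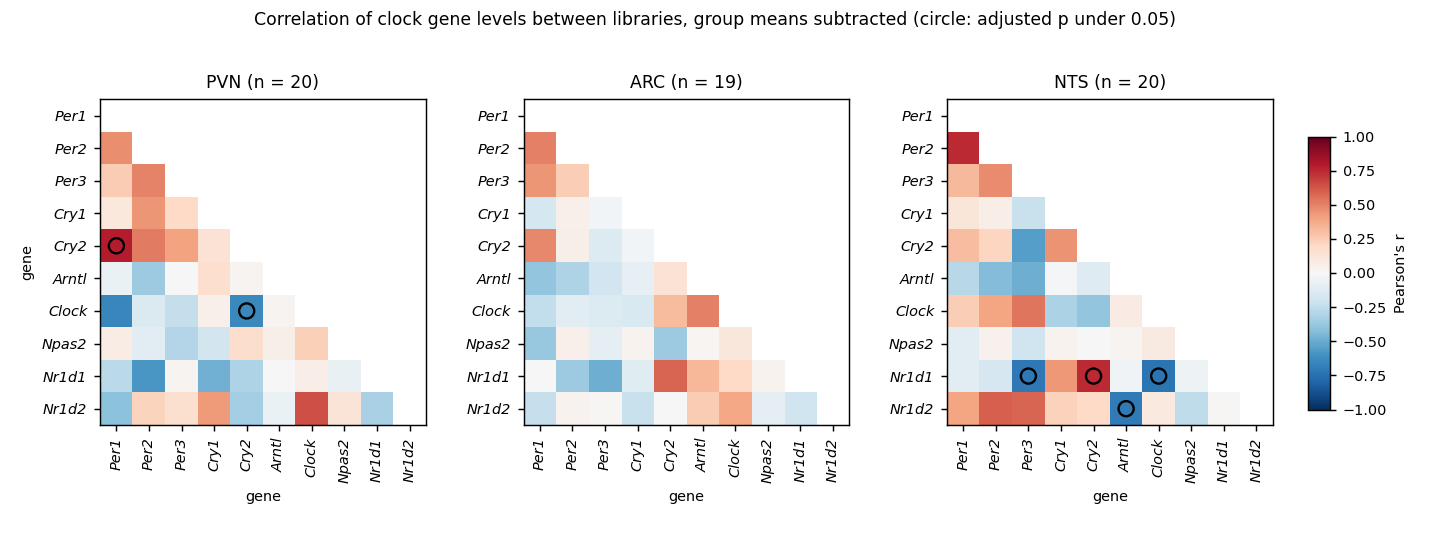
Pearson's r between log2 CPM of each pair of clock genes over the libraries of PVN (n = 20), ARC (n = 19) and NTS (n = 20), with group means subtracted; red is positive, blue is negative, and circles mark pairs with a permutation adjusted p under 0.05. The circled pairs are 2 in PVN and 4 in NTS, and 3 of those in NTS include Nr1d1.

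The number in each library's title gives an order whose meaning the labels do not state. Level was correlated with it in each region, without the titles 5553 to 5557, for 30 relations in all. Per3 in ARC passed, with r = 0.776 and rho = 0.789 over 17 libraries (permutation adjusted p = 0.0165 and 0.0147) and r = 0.729 without the 2 farthest libraries. Per3 in NTS gave r = 0.555 and rho = 0.586 (permutation adjusted p = 0.147 and 0.133), and Per3 in PVN r = 0.114 and rho = 0.203 (permutation adjusted p = 0.761 and 0.768). Within the 7 vehicle libraries of ARC alone, Per3 gave r = 0.601 and rho = 0.393 and did not pass.

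The genes whose spread between libraries was most like each member were sought in 11605 genes averaging 5 CPM or more, over all 59 libraries with group means subtracted; these correlations are descriptions that share library and depth. For Per1 they were Sik1 (r = 0.809), Dnajb5 (0.771) and Rrad (0.766), and for Per2 Rrad (0.619), Junb (0.593) and Fosl2 (0.592). Without the libraries numbered 1 the values for Per1 were 0.67, 0.551 and 0.568 and Sik1 stood at place 16; those for Per2 were 0.299, 0.364 and 0.272, at places 414, 131 and 646. Per2 ranked 69th among all genes for Per1 with all libraries and 2105th without them.

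For the other members the most like genes were outside the clock. Clock was most like Taf9b (0.787), Pum2 (0.772) and Klhl9 (0.771), and Nr1d2 was most like Klhl28 (0.735), Picalm (0.689) and Serpini1 (0.681). The genes most like Nr1d1 included Prex1 (0.76) and Mgrn1 (0.751), those most like Cry2 included Irs2 (0.738) and Sec14l1 (0.699), and Per3 was most like Pnisr (0.694), Zfp445 (0.691) and Tia1 (0.674). Cry1, Arntl and Npas2 had no gene above 0.501, the value of Grtp1 with Cry1. No member was among the 3 most like genes of another member.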

How the data were processed

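The authors deposited raw counts per Ensembl gene for 59 libraries of polyA RNA. The submitters' processing notes name bcl2fastq 2.20.0.422, STAR 2.5.2a and GRCm38; the counter, its strand setting and annotation are not given in the sources used here. Totals were 3964093 to 28510118 counts. Symbols and exon lengths came from GENCODE M21, which matched 21858 of 21935 IDs. Counts were tested with edgeR 4.0.16 (robust quasi-likelihood, filterByExpr with 10 counts and 15 in total, TMM) in each region, and jointly over 6 groups for regions and interactions, with Benjamini-Hochberg adjustment over all genes. The code was tested on simulated data. DESeq2 1.42.0, limma 3.58.1 (voom), other scalings, filters, covariates, left-out libraries and a block by title number were alternatives. Correlations used log2(CPM + 0.5). The text names all 10 members, other clock genes called for the treatment or the 3 with the smallest p, 6 glucocorticoid and 4 activity genes, and the 3 most like genes of a member; a few genes these rules select are not reported here. The members, lists and the libraries left out were chosen with earlier results of these data known.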

Additional observations from a re-analysis of the deposited data

Results flagged for a closer look

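In 9 of the 60 groups formed by a member, a region and a treatment, 1 library stood far from the rest of its group by Dixon's gap test; chance flags about 1 in 20, or 3 of 60. Of the 9, 5 were libraries numbered 1. For Per1 these were treated 1 in PVN at 42.9 CPM (the others 95.0 to 129), vehicle 1 in NTS at 82.5 CPM (others 35.02 to 52.8) and treated 1 in NTS at 31.5 CPM (others 63.9 to 90.9). Treated 1 in NTS also stood apart for Per2, at 18.4 CPM (others 28.7 to 36.7), and for Arntl, at 28.5 CPM (others 18.8 to 23.4).

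The other 4 were outside those libraries. Vehicle 10 in PVN, with 7640639 counts, was high for Clock, at 167 CPM (others 96.8 to 122), and for Nr1d2, at 236 CPM (others 132 to 171). Treated 9 in PVN, with 5641388 counts, was low for Clock, at 95.4 CPM (others 111 to 120). Vehicle 6 in ARC, with 7383726 counts, was high for Npas2, at 11.7 CPM (others 6.32 to 8.72).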

How the results depend on the processing

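With all libraries edgeR called 0 members for IP118/PY115 in each region. In PVN the count was 1 under DESeq2 and 1 under limma-voom (Nr1d1 both times), and 2 without the libraries numbered 1. Without those libraries, picked from values of Fkbp5 and Per1, it was 1 in ARC and 2 in NTS. Leaving out each library in turn gave 0 to 1 in PVN, 0 in ARC and 0 to 2 in NTS. RLE scaling, library totals alone, both filters, both covariate sets, the titles 5553 to 5557 and libraries under 0.5 of the median total left the count at 0. Counts between regions stayed within 1.5 times and interaction counts at 0. Over all genes edgeR, DESeq2 and limma-voom called 88, 206 and 508 in PVN, 0, 59 and 5 in ARC, and 0, 67 and 19 in NTS, and edgeR without the libraries numbered 1 called 429, 153 and 162. Of 210 values for members between regions under the alternatives, 193 kept their direction and call; Nr1d1 against NTS lost its call under 3 settings for PVN and 4 for ARC. Pairs passing fell from 2 to 0 (PVN) and from 4 to 1 (NTS) with Spearman's rho, and from 2 to 1 in PVN without the libraries numbered 1. The 1 relation with library number in ARC fell to 0 in vehicle libraries alone.

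Signs turned for values near 0, none of them called. In PVN, limma-voom gave Clock 0.022, Npas2 0.026 and Nr1d2 0.002; without titles 5553 to 5557 Clock was 0.028 and Npas2 0.021; without low totals Npas2 was 0.012. In ARC, Nr1d2 was -0.003 without those titles. In NTS, Clock was 0.001 with no filter, 0.008 with marker scores and 0.013 without the libraries numbered 1, and Nr1d2 was -0.01 under limma-voom, -0.004 with library totals alone, -0.001 with the log10 total and -0.032 with marker scores. Between PVN and ARC, library totals alone gave Per2 -0.03, Clock -0.032 and Nr1d2 -0.049, and Nr1d1 was 0.018 without the libraries numbered 1. Without the titles 5553 to 5557 interactions turned for Cry1 (-0.012) and Clock (0.028) in PVN minus ARC, Cry2 (-0.032) and Clock (0.029) in PVN minus NTS, and Nr1d1 (0.002) and Nr1d2 (-0.01) in ARC minus NTS. Leaving out 1 library, ranges crossed 0 for Arntl (-0.055 to 0.061), Clock (-0.091 to 0.005) and Nr1d2 (-0.094 to 0.01) in PVN, Arntl (-0.052 to 0.022) in ARC, and Per3 (-0.09 to 0.012), Clock (-0.031 to 0.019) and Nr1d2 (-0.025 to 0.051) in NTS. The cause of these changes was not tested. No paired analysis was possible because vehicle and treated libraries of a region are different animals with no shared replicate number. Between regions, title numbers run in parallel but are not stated to name animals. A replicate block by title number, chosen after seeing the data, on 53 libraries called 5, 9 and 3 members (PVN against ARC, PVN against NTS, ARC against NTS) and 0 in the interactions. Among all 14471 genes the block called 39.6%, 52.9% and 59.8% for the same pairs of regions, and 0%, 0.0346% and 0% in the interactions. Under it Per1 in PVN against ARC gained a call (0.392, edgeR FDR = 0.0444) and Arntl in ARC against NTS lost it (0.211, edgeR FDR = 0.0541); signs turned for Clock (-0.09) and Nr1d2 (-0.072) in PVN over ARC and, in interactions, for Arntl (-0.035) and Clock (0.017) in PVN minus ARC and Cry2 (-0.041) and Clock (0.03) in PVN minus NTS. The block joined libraries of different regions whose title numbers stood equally far from the first number of their region. Libraries so paired correlated above 0.1 in 3 of 15, 2 of 17 and 4 of 17 pairs. In 5, 4 and 5 of these pairs, the library of the first region correlated best with its own partner among libraries of the same treatment. A chance level for these counts was not computed.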
